A study of Macaca fascicularis with 8 samples.

Results

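Protocadherins, the largest family of cadherin-type adhesion receptors, were taken from RNA-seq of embryonic stem cells (ESCs) of the cynomolgus monkey. A gene row was a member if the deposited table gave it a name beginning with PCDH, or if its best protein match was called a protocadherin with at least 85% identity, and each protein name kept the row with the highest mean. This gave 32 members among 33121 genes, 13 clustered and 19 non-clustered. PCDH19 was the only member named by the table itself, and the remaining names are those of protein matches.

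The study compared primed with dome-shaped ESCs, 4 libraries each. Primed cells formed flat colonies in CESM, a mix of PSGro human stem cell medium with conventional monkey ESC medium, and passaged poorly as single cells. Dome-shaped cells passaged well as single cells and grew in NHSMV, a knockout DMEM medium with AlbuMAXI, N2 supplement, insulin, glutamine, nonessential amino acids, β-mercaptoethanol and vitamin C. NHSMV also held human LIF at 10 ng/ml, bFGF at 8 ng/ml and TGF-β1 at 1 ng/ml, with the kinase inhibitors PD0325901 (MEK, 1 µM), CHIR99021 (GSK3, 3 µM), SB202190 and SB203580 (p38, 5 and 10 µM) and SP600125 (JNK, 10 µM). Medium, colony shape and group coincide and cannot be told apart. The titles hold a number after CES, whose meaning is not stated. It is 1 for dome-shaped replicates 1 and 2 and 3 for primed replicates 3 and 4. Libraries of a group may therefore share a source. Each number, 1 to 3, occurs in both groups, and the titles of primed replicate 4 and dome-shaped replicate 4 share a longer tag. Libraries may thus also be paired across the groups. The fits below leave this out, except the one with a replicate block. The labels do not say whether libraries of a group came from separate animals, clones or cultures, so p-values measure the spread between these libraries, which may be technical.

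Protocadherins have cadherin repeats outside the cell and cytoplasmic tails that differ from those of classical cadherins. The clustered genes lie in the alpha, beta and gamma arrays, where each variable exon has its own promoter. CTCF and cohesin choose promoters, DNA methylation silences them, and in neurons the resulting combination of isoforms serves as a cell's identity. In the alpha and gamma arrays the variable exons are spliced to shared constant exons. Non-clustered members are single genes: the delta-1 and delta-2 protocadherins act in cell sorting and axon growth, and the giant FAT and Dachsous cadherins set planar cell polarity.

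Values are RPKM, reads scaled to gene length and library depth, so that levels can be set side by side between genes. The libraries implied 14402888 to 18078808 reads and held 15141 to 15830 genes at 1 RPKM or more. For several pluripotency markers, dome-shaped replicate 4 stood closer to the primed libraries than its group did, as for DNMT3B, which was 533 to 852 RPKM in primed libraries, 266 to 351 RPKM in the first 3 dome-shaped replicates and 667 RPKM in the fourth. Pluripotent identity was checked with 10 markers, all of which had a tested row: their summed RPKM was 3254 to 3879 in primed and 2047 to 3226 in dome-shaped libraries, 5 of the 10 fell and none rose, where 7.96% of all genes tested were called lower and 6.38% higher (limma). Of the 5, ZFP42 stayed called in all 8 fits that each left out a library, while LIN28B, TDGF1 and DNMT3B lost the call in 6 and DPPA4 in 7. Without primed replicate 2, 3 or 4, or dome-shaped replicate 2 or 3, ZFP42 alone of the 5 was called. SOX2 was at least 172 RPKM and LIN28A at least 733 RPKM in each library.

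The members spanned a wide range of levels. FAT1 was the highest, with a mean of 40.9 RPKM over the 8 libraries, followed by PCDH1 at 29.5 RPKM, PCDH18 at 22.8 RPKM and the PCDHA row at 12.1 RPKM. The median member stood at 0.472 RPKM. Between 8 and 13 members reached 1 RPKM in a library, and 28 to 32 had a value above 0. limma was run on log2(RPKM + 1) of genes that reached 1 RPKM in 4 libraries or more, a filter that left 10 members tested and 22 below it. Of the 13 clustered members 1 was tested, and of the 19 non-clustered members 9 were.

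Of the 10 tested members, 4 were higher in the dome-shaped group and 1 was lower (limma, Benjamini-Hochberg adjusted over 15597 genes, threshold 0.05). Over all genes tested the same rule called 14.3%, with 6.38% higher and 7.96% lower. The higher members were PCDH8, PCDH18, DCHS1 and the PCDHA row, and the lower member was PCDH1. The median log2 fold change was 0.32 over the tested members and 0.03 over all genes tested. The groups did not overlap for these 5 of 10 tested members, against 22.2% of all genes tested. These are bulk libraries, in which fewer expressing cells and less RNA per cell cannot be told apart. The count of higher members fell from 4 to 2 without primed replicate 2, dome-shaped replicate 2 or dome-shaped replicate 3, and the count of lower members rose to 2 without primed replicate 1.

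**Figure D1:**
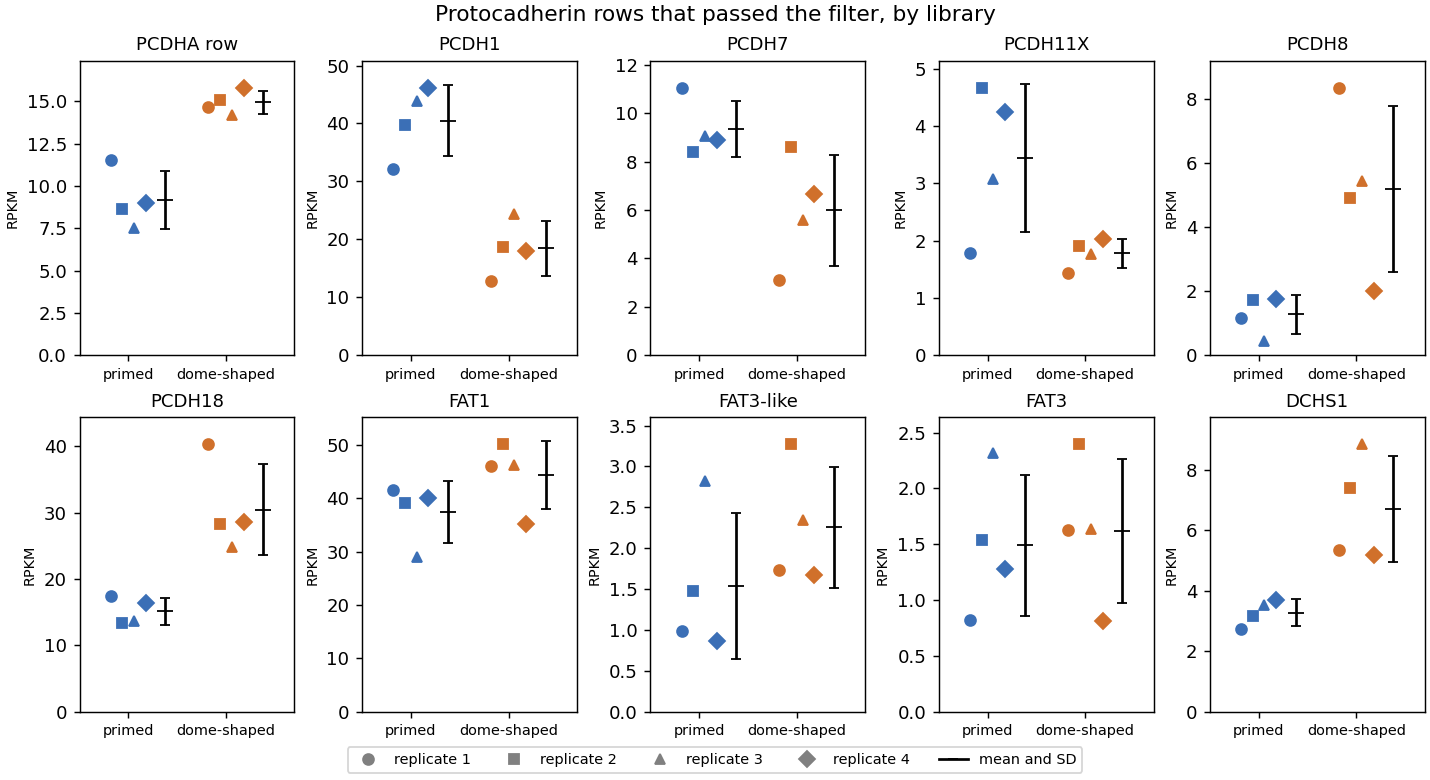
RPKM of the 10 tested protocadherin rows in each library (y axis, linear from 0), with primed libraries in blue and dome-shaped libraries in orange, 1 marker shape per replicate number, and the group mean with its SD in black (n = 4). PCDH1 is lower, and PCDH8, PCDH18, DCHS1 and the PCDHA row are higher, in every dome-shaped library than in any primed library.

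PCDH1, a delta-1 protocadherin of epithelia and endothelium, was the member that fell. It stood at 32.2, 39.7, 43.9 and 46.2 RPKM in primed replicates 1 to 4 and at 12.8, 18.7, 24.3 and 18.0 RPKM in dome-shaped replicates 1 to 4. The highest dome-shaped library was below the lowest primed library, and dome-shaped replicate 4 lay within the range of the other dome-shaped libraries. The mean went from 40.5 ± 6.14 to 18.5 ± 4.72 RPKM (SD, n = 4 each), which is -1.11 on the log2 scale (SE 0.18, 95% interval -1.52 to -0.70, limma adjusted p = 0.00684). This call held whichever library was left out (adjusted p 0.0071 to 0.0232).

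PCDH7 and PCDH11X, the other delta-1 members tested, were not called. PCDH7, also known as NF-protocadherin, stood at 11.1, 8.41, 9.07 and 8.92 RPKM in primed and at 3.13, 8.61, 5.58 and 6.65 RPKM in dome-shaped replicates 1 to 4. Only dome-shaped replicate 2 entered the primed range (log2 fold change -0.63, SE 0.24, limma adjusted p = 0.108). PCDH11X, the X-linked delta-1 gene, stood at 1.79, 4.67, 3.07 and 4.24 RPKM in primed and at 1.44, 1.90, 1.76 and 2.02 RPKM in dome-shaped replicates. Primed replicate 1 was as low as the dome-shaped libraries (log2 fold change -0.63, SE 0.23, adjusted p = 0.0956), and without it PCDH11X was called lower (log2 fold change -0.83, adjusted p = 0.0212). PCDH9, the fourth delta-1 gene, was below the filter and had the opposite order, with 0.171 to 0.338 RPKM across primed and 0.370 to 0.800 RPKM across dome-shaped libraries, without overlap. It was not called in the fit without a filter (adjusted p = 0.0681).

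The delta-2 protocadherin PCDH18, a gene of embryonic mesenchyme and neural tissue, was higher in dome-shaped ESCs. It stood at 17.4, 13.3, 13.6 and 16.4 RPKM in primed and at 40.3, 28.3, 24.8 and 28.6 RPKM in dome-shaped replicates 1 to 4. Every dome-shaped library was above every primed library, replicate 4 included, and dome-shaped replicate 1 was the highest. The mean went from 15.2 ± 2.04 to 30.5 ± 6.79 RPKM (log2 fold change 0.95, SE 0.16, 95% interval 0.60 to 1.30, limma adjusted p = 0.00677), and the call held without any single library (adjusted p up to 0.0245).

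PCDH8, the delta-2 protocadherin also called arcadlin or PAPC, which controls cell movements of paraxial mesoderm, had the largest fold change of the tested members. It stood at 1.16, 1.73, 0.442 and 1.76 RPKM in primed and at 8.35, 4.91, 5.45 and 2.01 RPKM in the dome-shaped ones, in order. Replicate 4 of the latter was just above the highest primed library, and the other dome-shaped libraries were well above it. The mean went from 1.27 ± 0.618 to 5.18 ± 2.60 RPKM, 4.07 times the primed mean (log2 fold change 1.38, SE 0.35, 95% interval 0.60 to 2.16, limma adjusted p = 0.0306). The call was lost when any library other than dome-shaped replicate 4 was left out (adjusted p 0.0519 to 0.0808 in those 7 fits), and without that replicate the log2 fold change was 1.69 (adjusted p = 0.00555).

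The other delta-2 members were below the filter. PCDH19, a homophilic receptor in which mutations cause epilepsy, stood at 0.476, 3.22, 0.965 and 2.33 RPKM in primed and at 0.385, 0.801, 0.430 and 0.879 RPKM in dome-shaped replicates 1 to 4. The spread came from primed replicates 2 and 4, and the groups overlapped. PCDH17 stood at 0.999 to 2.26 RPKM in primed and at 0.106, 0.507, 0.262 and 0.929 RPKM in dome-shaped replicates, so that replicate 4 nearly reached the lowest primed library while the groups did not overlap (adjusted p = 0.0716 in the fit without a filter). PCDH10 stood at 0.0976 to 0.362 RPKM in primed and 0.0994 to 0.614 RPKM in dome-shaped libraries.

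**Figure D2:**
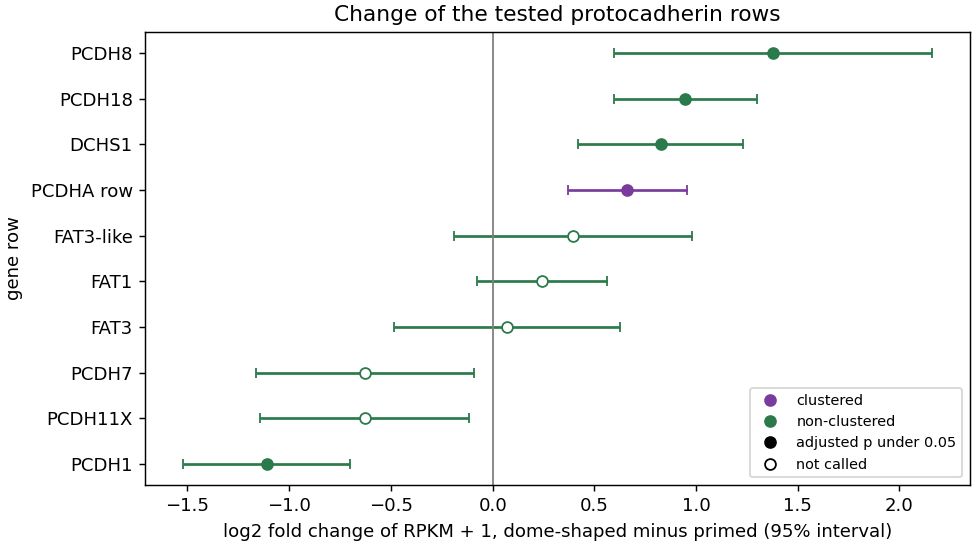
Log2 fold change of RPKM + 1, dome-shaped minus primed (x axis), with its 95% interval for the 10 tested protocadherin rows (y axis); filled points were called and open points were not, purple is clustered and green is non-clustered. The called rows are PCDH1 on the left of 0 and PCDHA row, DCHS1, PCDH18 and PCDH8 on the right.

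Summed over genes, delta-1 was lower and delta-2 higher in each dome-shaped library than in any primed library. The 4 delta-1 rows had a summed level of 53.5 ± 6.18 (primed) and 26.8 ± 6.43 RPKM (dome-shaped), and the 5 delta-2 rows of 19.9 ± 1.94 and 37.1 ± 8.26 RPKM. These sums mostly follow PCDH1 and PCDH18, their most abundant members, and carry no test. All 19 non-clustered rows together summed to 119 ± 8.16 (primed) and 121 ± 11.6 RPKM (dome-shaped).

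**Figure D3:**
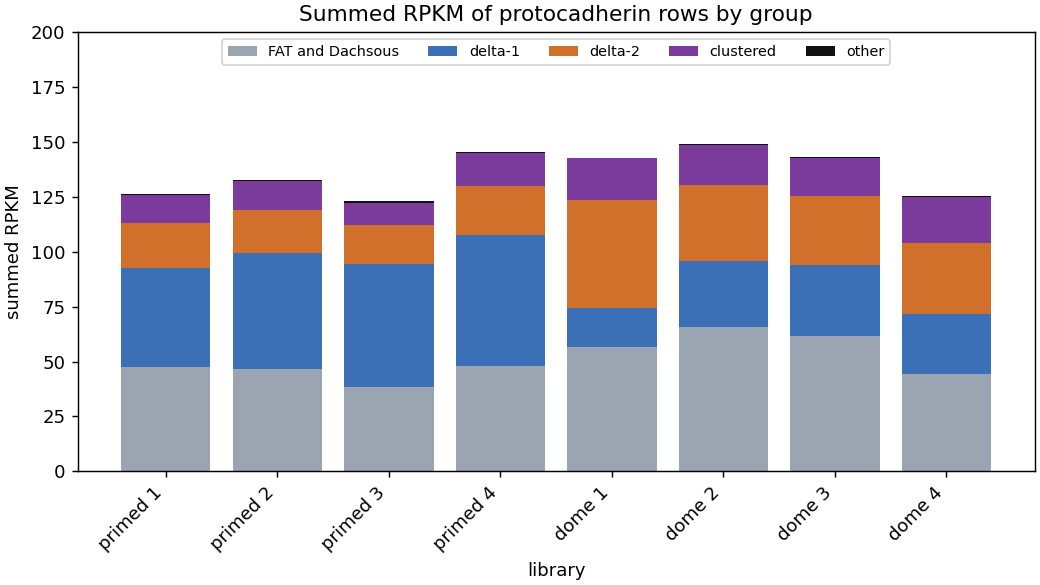
Summed RPKM (y axis, from 0) of the protocadherin rows in each library (x axis), stacked by group. The delta-1 part is 45.2 to 59.7 RPKM in primed and 17.7 to 32.5 RPKM in dome-shaped libraries, and the delta-2 part is 17.6 to 22.3 and 31.5 to 49.3 RPKM.

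Among the giant cadherins, DCHS1 was higher in dome-shaped ESCs, while FAT1 and both FAT3 rows were not called. DCHS1 (protocadherin-16) encodes Dachsous 1, the ligand of FAT4 in planar cell polarity. It stood at 2.72, 3.18, 3.52 and 3.70 RPKM in primed and at 5.37, 7.42, 8.86 and 5.19 RPKM in dome-shaped replicates 1 to 4. All dome-shaped libraries were above all primed libraries, with replicates 1 and 4 the lowest of them. The mean went from 3.28 ± 0.433 to 6.71 ± 1.75 RPKM (log2 fold change 0.83, SE 0.18, 95% interval 0.42 to 1.23, limma adjusted p = 0.0189). The call was lost without primed replicate 2 (adjusted p = 0.0552), dome-shaped replicate 2 (0.0577) or dome-shaped replicate 3 (0.0506).

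The FAT4-like row, whose match is the receptor partner of Dachsous 1, was below the filter, and it is described because of its values. It stood at 0.504, 0.235, 0.266 and 0.268 RPKM in primed and at 1.62, 2.41, 2.20 and 0.980 RPKM in dome-shaped replicates 1 to 4, without overlap and with replicate 4 the lowest dome-shaped library. About 87 reads lay behind the 4 primed values and 458 behind the dome-shaped values. In a fit without a filter, which called 7.42% of the genes in it, the row was higher by 1.06 on the log2 scale (SE 0.18, limma adjusted p = 0.0172). Leaving out primed replicate 2, 3 or 4, or dome-shaped replicate 2 or 3, ended that call, with adjusted p reaching 0.0675. ENSMMUG00000011810 is not a member, because its best match is the FATJ protein, a former name of FAT4. Its primed mean was 0.170 ± 0.0761 RPKM and its dome-shaped mean 1.16 ± 0.593 RPKM, also without overlap. The rows may be parts of the same gene and are not independent.

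FAT1, a giant cadherin of cell edges and the most abundant member, stood at 41.6, 39.2, 28.9 and 40.1 RPKM in primed and at 46.0, 50.2, 46.2 and 35.3 RPKM in dome-shaped replicates 1 to 4. The groups overlapped because dome-shaped replicate 4 lay inside the primed range (log2 fold change 0.24, SE 0.14, 95% interval -0.08 to 0.56, adjusted p = 0.274). The FAT3 and FAT3-like rows, which may be parts of the same gene, both overlapped between groups. FAT3-like stood at 0.987, 1.47, 2.82 and 0.861 RPKM in primed and at 1.74, 3.27, 2.34 and 1.67 RPKM in dome-shaped replicates (log2 fold change 0.39, SE 0.26, adjusted p = 0.332), and for FAT3 the log2 difference was 0.07 (SE 0.25, adjusted p = 0.872). FAT2 stood at 0.150 to 0.391 RPKM in primed and at 0.110 to 0.261 RPKM in dome-shaped libraries.

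DCHS2, the Dachsous paralogue also named protocadherin-23, had the opposite order to DCHS1. Its row stood at 0.617, 0.642, 0.204 and 1.56 RPKM in primed and at 0.106, 0.0788, 0.0803 and 0.256 RPKM in dome-shaped replicates 1 to 4. Primed replicate 3 was below dome-shaped replicate 4, and the row was not called without a filter (adjusted p = 0.12). ENSMMUG00000021300, whose close match is also protocadherin-23 and which is not a member, had a primed mean of 1.11 ± 0.818 RPKM and a dome-shaped mean of 0.184 ± 0.151 RPKM, without overlap.

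Of the clustered members, the PCDHA row was the only row that passed the filter. Its best match was a protocadherin alpha of the Japanese macaque and a further close match an alpha-C2-like protein, an isoform of the type that is expressed constitutively. It stood at 11.6, 8.62, 7.5 and 9.0 RPKM in primed and at 14.7, 15.1, 14.2 and 15.8 RPKM in dome-shaped replicates 1 to 4. All dome-shaped libraries lay close together and above all primed libraries, of which replicate 1 was the highest. The mean went from 9.17 ± 1.72 to 14.95 ± 0.677 RPKM (log2 fold change 0.66, SE 0.13, 95% interval 0.37 to 0.96, limma adjusted p = 0.0126), and the row stayed called in the 8 fits that each left out a library (adjusted p up to 0.0435). Whether reads of the constant exons shared by alpha isoforms were counted to this row is not given in the sources used here, so the change cannot be assigned to a named isoform.

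PCDHA2, a variable alpha isoform and the other alpha member, was below the filter. It stood at 0.435, 0.441, 0.127 and 0.939 RPKM in primed and at 0.939, 0.842, 0.890 and 0.728 RPKM in dome-shaped replicates 1 to 4. The dome-shaped libraries lay together, while primed replicate 4 was as high as the highest of them.

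The 10 beta rows were all below the filter, and their means over the 8 libraries ran from 0.0570 to 1.06 RPKM. Beta protocadherins are single-exon genes with no constant region. Their means were higher in dome-shaped cells for 5 rows and lower for 5. The summed beta RPKM was 1.17, 4.09, 1.92 and 4.26 in primed replicates 1 to 4 and 2.87, 1.89, 1.49 and 4.21 in dome-shaped replicates 1 to 4. Primed replicates 2 and 4 and dome-shaped replicate 4 were high, so that the beta sum differed more within each group (SD 1.55 and 1.21) than between the group means of 2.86 and 2.62.

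PCDHB2, PCDHB3 and PCDHB4 were the most abundant beta rows and shared that order of libraries. PCDHB2 stood at 0.375, 2.04, 0.872 and 1.77 RPKM in primed and at 0.892, 0.464, 0.622 and 1.46 RPKM in dome-shaped replicates 1 to 4. PCDHB3 stood at 0.267, 0.809, 0.314 and 0.885 RPKM in primed and at 0.393, 0.306, 0.250 and 0.788 RPKM in dome-shaped replicates. For PCDHB4 the values were 0.114, 0.346, 0.188 and 0.406 RPKM in primed and 0.211, 0.131, 0.128 and 0.576 RPKM in dome-shaped replicates. Primed replicates 2 and 4 were the highest primed libraries for 5 of the 10 beta rows, and dome-shaped replicate 4 was the highest dome-shaped library for 6. Each value rests on few reads, from 5 to 70 per library for these 3 genes, so differences of a few reads between libraries are within counting error.

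PCDHB1, another beta row, is described because of its values. It had 0, 0, 0 and 1 reads in primed and 16, 5, 9 and 11 reads in dome-shaped replicates 1 to 4, which are 0 to 0.0243 RPKM and 0.141 to 0.405 RPKM. Every dome-shaped library, replicate 4 included, held more reads than any primed library. The depth-scaled ratio of the 41 dome-shaped reads to the 1 primed read was 44.4 (95% exact interval 7.54 to 1796, counting error only). The interval pools the libraries of a group and leaves out their spread. Because the row was picked for these values, neither the interval nor the fit below is independent support for a difference. PCDHB1 was called without a filter (log2 fold change 0.33, SE 0.07, limma adjusted p = 0.0305). Leaving out any 1 of the primed libraries, or dome-shaped replicate 3, ended the call (adjusted p reaching 0.086). Of the 10 beta rows it was the only 1 whose groups did not overlap. Over all genes above 0 and below the filter, 8.47% did not overlap, a share near that of the beta rows.

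PCDHGA7, the single gamma member, varied without regard to the groups. It had 1, 1, 31 and 33 reads in primed and 17, 10, 35 and 3 reads in dome-shaped replicates 1 to 4, or 0.0252, 0.0255, 0.714 and 0.821 RPKM and 0.441, 0.289, 0.825 and 0.0867 RPKM. Both groups held libraries near 0 and libraries at 0.7 RPKM or more. The row ENSMMUG00000021963, not a member because its best match is an uncharacterized protein, has gamma subfamily A, 6 as a close match and may hold gamma reads in bulk. It stood at 20.03, 19.4, 24.5 and 26.05 RPKM in primed and at 34.3, 35.4, 37.1 and 31.9 RPKM in dome-shaped replicates (log2 fold change 0.61, SE 0.11, limma adjusted p = 0.00968; up to 0.034 without any single library), more than all clustered members together.

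**Figure D4:**
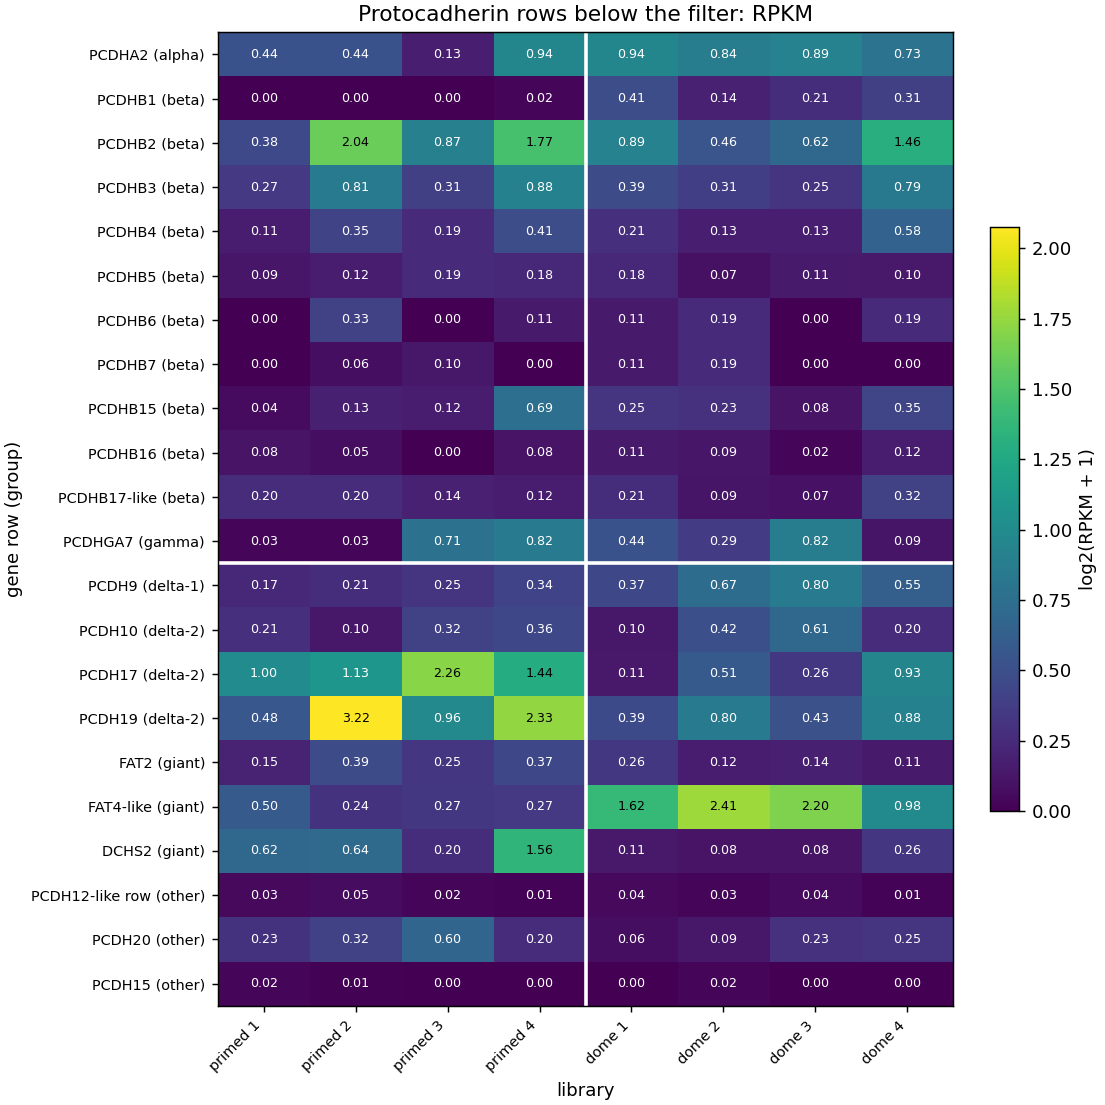
RPKM of the 22 protocadherin rows below the filter (y axis, with the group of each) in each library (x axis); colour is log2(RPKM + 1) and each cell prints its RPKM, with clustered rows above the horizontal line and primed libraries left of the vertical line. FAT4-like and PCDHB1 are higher in all dome-shaped libraries, and PCDHB2 and PCDHB3 are high in primed replicates 2 and 4 and dome-shaped replicate 4.

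The clustered members summed to 13.2, 13.2, 10.3 and 15.02 RPKM in primed and to 18.9, 18.1, 17.4 and 20.8 RPKM in dome-shaped replicates 1 to 4. The PCDHA row made up 59.9% to 87.7% of that sum. Without it the clustered sum was 3.74 ± 1.94 (primed) and 3.88 ± 0.938 RPKM (dome-shaped), and the groups overlapped. Clustered rows took 8.34% to 10.4% of the RPKM of all 32 members in primed and 12.2% to 16.6% in dome-shaped libraries. Beside the 5 tested members, 4 of the 22 members below the filter did not overlap between groups (PCDHB1, PCDH9 and FAT4-like higher, PCDH17 lower), against 8.47% of all genes above 0 and below the filter. Of the clustered members 2 of 13 did not overlap and of the non-clustered members 7 of 19. These counts mix tested members with members below the filter, for which the shares over all genes were 22.2% and 8.47%. The classes differ in that mix, so the counts are no contrast between them. Since 12 of 13 clustered members were too low to test, the classes were not compared by a test.

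The remaining members were barely expressed. PCDH20 stood at 0.203 to 0.601 RPKM in primed and 0.0564 to 0.251 RPKM in dome-shaped libraries. ENSMMUG00000006291, called Fat 4 by its best match but protocadherin-12 by its second match, stood at 0.0115 to 0.0472 RPKM and had 10 reads in each group. PCDH15, a protein of hair cell tip links, had 3 reads in all primed and 2 in all dome-shaped libraries.

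Of 25 listed genes that act on clustered promoters, 23 were tested, none rose and 2 fell, where 6.38% of all genes tested were higher and 7.96% lower. The median log2 fold change of the list was 0.00, against 0.03 over all genes tested. CTCF, the insulator protein that loops promoters to their enhancer, had means of 90.9 ± 8.72 (primed) and 88.0 ± 14.2 RPKM (log2 fold change -0.06, SE 0.12, limma adjusted p = 0.788). SMCHD1, a chromatin repressor of the clusters whose symbol fitted 2 rows, stood at 23.4 ± 1.21 and 30.4 ± 4.0 RPKM (adjusted p = 0.0549). The 2 genes that fell were the de novo DNA methyltransferases. DNMT3A went from 115 ± 14.0 to 78.6 ± 11.4 RPKM, a log2 difference of -0.55 with an SE of 0.12 (limma adjusted p = 0.0202). Leaving out primed replicate 2, primed replicate 3 or dome-shaped replicate 2 ended this call, with adjusted p reaching 0.0558. DNMT3B went from 744 ± 143 to 393 ± 186 RPKM, a log2 difference of -0.998 with an SE of 0.28 (limma adjusted p = 0.0419). Its call held only without primed replicate 1 or without dome-shaped replicate 4 and was lost in the other 6 fits that left out a library, with adjusted p reaching 0.106.

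Of 22 partners and effectors of protocadherins, 17 were tested (median log2 fold change 0.01). PSEN2, a catalytic subunit of the γ-secretase that releases cadherin tails, spanned 22.6 to 27.3 RPKM across primed and 10.0 to 15.8 RPKM across dome-shaped libraries, and fell by 0.86 on the log2 scale (SE 0.14, limma adjusted p = 0.00627). None of the tested WAVE complex genes, which link protocadherins to actin, was called, where 14.3% of all genes tested were called.

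Of 6 partners of FAT and Dachsous outside the family, all were tested, 1 rose and 1 fell, beside 6.38% higher and 7.96% lower over all genes tested. LIX1L, a relative of the Fat pathway component Lowfat of flies, rose by 3.30 on the log2 scale (SE 0.44, limma adjusted p = 0.00306). It spanned 28.0 to 36.5 RPKM across dome-shaped libraries, while primed replicate 1 had 9.19 RPKM and the remaining primed libraries had 1.07 to 1.61 RPKM. WWC1, the Hippo pathway protein KIBRA, fell by 0.60 on the log2 scale (SE 0.12, limma adjusted p = 0.013), from 24.7 ± 2.54 to 16.0 ± 2.06 RPKM.

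Markers of other cell types were followed in the same libraries. Over all genes tested, 6.38% were called higher and 7.96% lower. The 10 neuronal markers summed to 38.9 to 53.0 RPKM in primed and 59.7 to 125 RPKM in dome-shaped libraries, and none of the 5 tested was called. Much of that difference was STMN2, at 72.8, 29.8 and 40.0 RPKM in dome-shaped replicates 1 to 3 but 1.44 RPKM in replicate 4, where the neuronal sum was 59.7 RPKM and MAP2 was 16.6 RPKM against at most 11.2 RPKM in primed libraries. Among the other markers, TUBB3, DCX and SNAP25 had higher dome-shaped means, GAP43 and ELAVL4 had lower ones, and SYT1 was level. TUBB3 had means of 4.49 ± 1.22 (primed) and 15.3 ± 11.2 RPKM (dome-shaped), with 3.40 RPKM in dome-shaped replicate 4. GAP43 had means of 13.2 ± 4.99 (primed) and 10.4 ± 4.91 RPKM (dome-shaped). NEUROD1 was at most 0.0683 RPKM and ELAVL3 at most 0.396 RPKM anywhere. Of 7 neural progenitor markers, 5 had a row, 3 were tested and FABP7 rose from 0.781 ± 0.156 to 4.07 ± 0.866 RPKM. PAX6 and HES5 had lower dome-shaped means, and ZIC1 had a higher one. The summed level was 207 to 425 RPKM in primed and 229 to 341 RPKM in dome-shaped libraries. Most of it was NES, with means of 278 (primed) and 274 RPKM (dome-shaped). Of 7 endothelial markers 4 were tested and TEK rose, from 1.53 ± 1.52 to 20.6 ± 3.23 RPKM, with list sums of 6.99 to 17.8 and 26.3 to 34.9 RPKM. Most of the dome-shaped sum was TEK itself, at 16.8 to 23.5 RPKM. PECAM1 and VWF had lower dome-shaped means, CDH5, ESAM and CLDN5 had higher ones, and TIE1 was level. Of 8 fibroblast markers 5 were tested and COL1A2 fell, from 3.02 ± 0.640 to 1.34 ± 0.610 RPKM, with list sums of 57.4 to 195 and 37.6 to 62.3 RPKM. Among the limma fits that left out a library, this call held only without dome-shaped replicate 2 (adjusted p reaching 0.101). The other fibroblast markers were mixed. COL3A1, PDGFRA and DCN had higher dome-shaped means, and COL1A1, THY1, LUM and POSTN had lower ones. The part of such cells in the protocadherin differences was not tested.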

How the data were processed

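The authors deposited a table of RPKM values for 8 libraries with a query length per gene and, for up to 10 protein matches per gene, a percent identity and an alignment score, per the file headers. HTSeq 0.6.1, TopHat2 2.0.9 and Bowtie2 2.0.6 are listed, without their roles, per the submitters' processing notes; build, gene models and use of strand are not stated, so no coordinates are printed, and reads shared by close copies or overlapping genes are uncertain. After 17 blank rows were left out, 33121 genes remained. Values were transformed to log2(RPKM + 1), and genes reaching 1 RPKM in 4 libraries or more were compared with limma 3.58.1 in R 4.3.3 (mean trend, two-sided, no covariates, Benjamini-Hochberg adjustment over all genes tested, threshold 0.05). Fold changes understate changes of low genes. The script was tested on simulated data.

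Depth was read from the step of RPKM times query length, and at 21 of 32 members all values were whole reads within 0.01 of a read; for the others reads are approximate. The interval of the PCDHB1 read ratio covers counting error only. Symbols of listed genes came from the table, from RefSeq accessions or from protein names, for 93 of 100 genes. Members and lists were chosen with earlier results of these data known. Members described in full were those called and the 3 most abundant of each group, with the called regulators, CTCF, SMCHD1, DNMT3A and DNMT3B. FAT4-like, PCDHB1, PCDH9, PCDH10, PCDH17, DCHS2, FAT2, FAT3, rows outside the rule and single marker genes were named after their values were seen. Promoter and protein sequences were not used here. Alternatives were other pseudocounts, filters, scalings, a replicate block, no mean trend, other member rules and leaving out each library. The result of 1 gene among the partners and effectors is not reported here.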

Additional observations from a re-analysis of the deposited data

Results flagged for a closer look

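Among 36 groups of 4 values for the 18 members described by rule, 1 held a library far from the others, where chance gives about 1 in 20. PCDH15 stood at 0.0237 RPKM, 2 reads, in dome-shaped replicate 2 and at 0 in the other dome-shaped libraries. Beside values of 0, any value above 0 would have been flagged, so the flag carries no weight and the chance rate does not apply to it.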

How the results depend on the processing

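PCDH1 and PCDH18 kept their direction and their call under every alternative run. In a fit with a replicate block, taken from the number that follows CES in the titles, 303 genes were called higher and 593 lower, against 995 and 1242; of the members 1 was higher (0 clustered, 1 non-clustered), with limma adjusted p = 0.0516 for the PCDHA row, 0.0774 for PCDH8 and 0.0551 for DCHS1. For the 3 numbers, deviations from the group means were hardly correlated between the groups (0.005, -0.015 and -0.092). No number had its highest correlation with itself. With 1 or 2 libraries per number in a group, these values cannot show whether libraries are paired by source. Leaving out 1 library gave 381 to 1289 genes higher and 655 to 1441 lower, 2 to 4 members higher and 1 to 2 lower, 1 to 3 non-clustered members higher and 1 to 2 lower, and 1 clustered member higher in every fit. At a mean of at least 5 RPKM, 2 members were higher (1 non-clustered). Without a filter 2 clustered members were higher, and PCDH8 was not called (adjusted p = 0.058). With any close match naming a protocadherin, an alternative chosen after seeing the data, 2 clustered members were higher. The clustered sum was 0.54 higher on the log2 scale, and 0.083 as a mean of log2 values; leaving out 1 library gave 0.45 to 0.62. The non-clustered sum differed by 0.03, from -0.0113 (without dome-shaped replicate 2) to 0.0924. No protein name was shared by rows, so summing such rows was not run. Low levels left 12 of 13 clustered members untested, and few reads limit the precision of their values.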
